A study of Mus musculus with 6 samples.

Results

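The genes examined here are those of the pentose phosphate pathway, together with enzymes outside it that supply NADPH and the quinone reductase Nqo1 that spends it. The list held 10 genes, and 9 of them were found by a probeset of the array that names that 1 gene: Pgls, Pgd, Rpia, Rpe, Tkt, Taldo1, Me1, Idh1 and Nqo1, out of 19938 genes that the array names in this way. G6pdx is not analysed here. The cultures were primary osteoblasts grown out of the long bones of male wild-type C57BL6/J mice aged 8 to 12 weeks, in passage 2 to 3 and differentiated for 14 days. From each of 3 mice, numbered 2, 4 and 5, 1 culture was stimulated with recombinant murine C5a (100 ng/ml per the methods) for 4 h and 1 was left unstimulated in the same medium for that time, so that 6 arrays form 3 pairs. C5a is the complement fragment that acts on the receptor C5aR1, and the comparison asks what it does to the transcripts of differentiated osteoblasts.

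The pentose phosphate pathway branches off glycolysis at glucose 6-phosphate. Its oxidative branch reduces NADP+ to NADPH while it turns the sugar into a pentose phosphate, and its non-oxidative branch interconverts pentoses with glycolytic intermediates. NADPH is the electron donor of fatty acid and sterol synthesis, of glutathione and thioredoxin reduction and of the NADPH oxidases, and ribose 5-phosphate is the sugar of newly made nucleotides. In many cell types several of these enzymes, and Nqo1 in particular, are under control of the transcription factor NRF2, which binds antioxidant response elements.

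All values are log2 values per probeset after robust multiarray averaging (RMA) by the authors. Values of different genes cannot be ranked, since probes differ in affinity. The groups were compared within mice with limma over all 35556 probesets, and adjusted p-values follow Benjamini and Hochberg over all of them. Array medians lay between 5.89 and 5.93. Osteoblast transcripts were present on every array, with Col1a1 at 13.3 to 13.8 and Sparc at 14.0 to 14.2. The culture of mouse 5 stood apart in other osteoblast markers. Ibsp was at 7.02 with C5a and 7.56 without in mouse 5, against 11.3 to 12.9 in mice 2 and 4, and the 8 osteoblast markers measured had means of 10.6, 11.3 and 9.45 in mice 2, 4 and 5. Macrophage markers were present too and also differed between mice. In mice 2, 4 and 5 the 10 markers had means of 10.2, 10.6 and 6.45, and these means ran from 6.52 to 10.3 on the C5a arrays and from 6.38 to 10.9 on the unstimulated arrays. Fewer cells of a type and less RNA per cell cannot be told apart in such cultures.

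C5a-stimulated osteoblasts had more Nqo1 and Pgd transcript and less Idh1 transcript than unstimulated osteoblasts of the same mice, at 2.65, 1.47 and 0.619 times the unstimulated level (n = 3 pairs). Rpia was higher by 1.22-fold, and Pgls and Rpe had changes near 0. No member passed an adjusted p under 0.05 with limma, where 0% of all probesets were called higher and 0.0112% lower. At an unadjusted p under 0.05, 3 of the 9 members were higher (Nqo1, Pgd and Rpia), against 7.61% of all probesets, and 1 was lower (Idh1), against 8.58%. With a fold change of at least 1.5 in addition, which is how the thresholds of the methods were read, 1 was higher (Nqo1), against 1.71%, and 1 was lower (Idh1), against 1.57%. The same single genes had groups that did not overlap, against 7.89% of all probesets higher and 7.29% lower with C5a. In all 3 mice, 6 members were higher and 1 was lower, against 18.3% and 17.7% of all probesets. Of the 19938 genes, 3791 were higher and 4575 lower in all 3 mice. At an unadjusted p under 0.05, 1647 of these genes were higher and 2376 lower. The median change of the 9 members was 0.15 on the log2 scale, against -0.01 over all 19938 genes. The adjusted calls turned on which probesets were tested. Over the 21789 probesets that name 1 gene, Nqo1 (adjusted p = 0.0338) and Idh1 (adjusted p = 0.0441) passed with limma and were among 318 probesets called higher and 477 called lower.

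**Figure D1:**
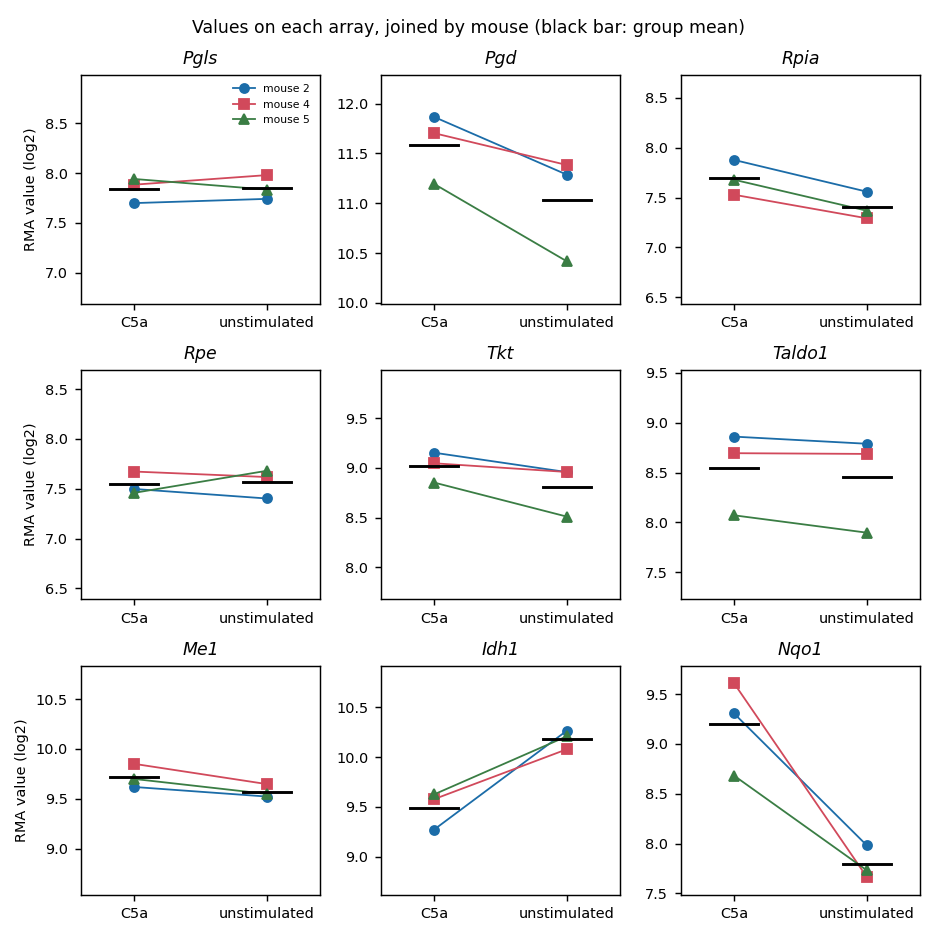
RMA values (log2, vertical axes of equal length) of the 9 measured genes on each array, with C5a at the left and unstimulated at the right of each panel. Symbols and lines join the arrays of mice 2, 4 and 5 and black bars are group means. Nqo1 lies at 8.68 to 9.61 with C5a and at 7.66 to 7.98 without, Idh1 at 9.27 to 9.63 with C5a and at 10.1 to 10.3 without, and the lines of Pgls and Rpe run in both directions.

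In the oxidative branch, Pgls encodes 6-phosphogluconolactonase, which opens the lactone that the first step makes. It had values of 7.70, 7.88 and 7.94 in C5a-stimulated osteoblasts of mice 2, 4 and 5, against 7.74, 7.98 and 7.84 in unstimulated ones. The arrays of both groups overlapped throughout. Its log2 change was -0.01 (standard error 0.08, 95% interval from -0.21 to 0.19, adjusted p = 0.976 from limma), and it was lower in mice 2 and 4 and higher in mouse 5.

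Pgd encodes 6-phosphogluconate dehydrogenase, the enzyme that makes the branch's further NADPH and releases ribulose 5-phosphate. It had values of 11.87, 11.70 and 11.19 in C5a-stimulated osteoblasts of mice 2, 4 and 5, against 11.29, 11.38 and 10.42 in unstimulated ones. The C5a array of mouse 5 was below the unstimulated arrays of mice 2 and 4, so that the groups overlapped, while within each mouse the C5a array was the higher one. The changes were 0.58, 0.32 and 0.78, with a mean of 0.56 (standard error 0.11, 95% interval from 0.28 to 0.84, adjusted p = 0.125 from limma). Its 1.47-fold change stood just below the 1.5-fold threshold. Without mouse 4 the change was 0.68, which passes that threshold. The unadjusted call of Pgd needed the pairing by mouse, since without the replicate block the standard error was 0.31 and the adjusted p was 0.623 (limma), with the unadjusted one above 0.05.

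In the non-oxidative branch, Rpia encodes ribose 5-phosphate isomerase, which converts ribulose 5-phosphate to the sugar of nucleotides. Its values were 7.88, 7.53 and 7.68 in C5a-stimulated osteoblasts of mice 2, 4 and 5, against 7.56, 7.29 and 7.37 in unstimulated ones. The lowest C5a array (mouse 4) lay below the highest unstimulated array (mouse 2), and the changes within mice were close to each other at 0.32, 0.24 and 0.31. The mean change was 0.29 (standard error 0.07, 95% interval from 0.11 to 0.47, adjusted p = 0.154 from limma).

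Rpe, which encodes the epimerase that makes xylulose 5-phosphate from the same substrate, had values of 7.50, 7.67 and 7.46 in C5a-stimulated osteoblasts and 7.4, 7.62 and 7.68 in unstimulated ones of mice 2, 4 and 5. The groups overlapped. It was higher in mice 2 and 4 and lower in mouse 5, with a mean change of -0.02 (95% interval from -0.26 to 0.22, adjusted p = 0.953 from limma). Tkt encodes transketolase, which transfers 2-carbon units. It had values of 9.15, 9.05 and 8.85 in C5a-stimulated osteoblasts and 8.96, 8.96 and 8.51 in unstimulated ones. The C5a array was the higher one in each mouse, by 0.19, 0.09 and 0.34, and the mean change of 0.21 (95% interval from -0.00 to 0.42, adjusted p = 0.319 from limma) just missed the unadjusted threshold. Taldo1 encodes transaldolase, which transfers 3-carbon units. Its values were 8.86, 8.69 and 8.07 in C5a-stimulated osteoblasts, against 8.79, 8.69 and 7.90 in unstimulated ones. Its change was 0.08 (standard error 0.07, 95% interval from -0.11 to 0.27, adjusted p = 0.697 from limma). Within mice 2, 4 and 5 it was 0.07, 0.01 and 0.17. Levels of Taldo1 differed by more than this between mice, but the comparison was made within mice.

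**Figure D2:**
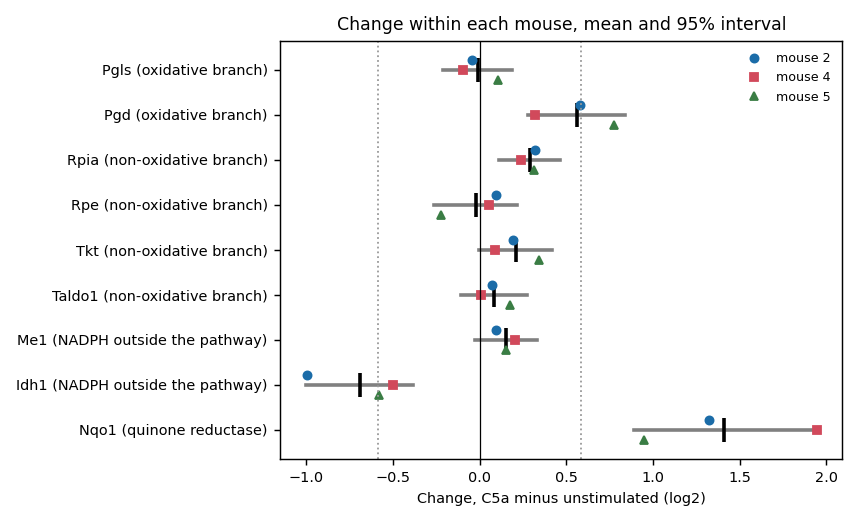
Change of each gene (C5a minus unstimulated, log2) within mice 2 (circles), 4 (squares) and 5 (triangles). Black ticks are the mean changes, grey bars the 95% intervals from limma, and dotted lines a 1.5-fold change. The intervals of Nqo1 (0.89 to 1.93), Pgd (0.28 to 0.84), Rpia (0.11 to 0.47) and Idh1 (-1.0 to -0.38) leave out 0.

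Outside the pathway, Me1 encodes the cytosolic malic enzyme, which makes NADPH as it turns malate into pyruvate. Its values were 9.62, 9.85 and 9.70 in C5a-stimulated osteoblasts of mice 2, 4 and 5, against 9.52, 9.65 and 9.55 in unstimulated ones. The change was small and of 1 sign in the 3 mice, at 0.10, 0.20 and 0.15, with a mean of 0.15 (95% interval from -0.03 to 0.33, adjusted p = 0.398 from limma). A further probeset naming Me1 had a change of 0.20 (95% interval from -0.06 to 0.45, adjusted p = 0.437 from limma).

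Idh1 encodes the cytosolic, NADP-dependent isocitrate dehydrogenase. Its values were 9.27, 9.58 and 9.63 in C5a-stimulated osteoblasts of mice 2, 4 and 5, against 10.27, 10.08 and 10.21 in unstimulated ones. All C5a arrays lay below all unstimulated arrays. The changes were -0.99, -0.50 and -0.58, with a mean of -0.69 (standard error 0.12, 95% interval from -1.0 to -0.38, adjusted p = 0.112 from limma). The 1.5-fold threshold was met only with mouse 2 included, since without it the change was -0.54. Idh1 was the only measured member whose value was lower in all mice.

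Nqo1 encodes the NAD(P)H-dependent quinone reductase, a common marker of NRF2 activity. It had the largest change of the 9 measured members. Its values were 9.31, 9.61 and 8.68 in C5a-stimulated osteoblasts of mice 2, 4 and 5, against 7.98, 7.66 and 7.73 in unstimulated ones. Each C5a array was above each unstimulated array, and the unstimulated arrays were closer together than the C5a arrays (SD 0.17, n = 3, against 0.47, n = 3, with C5a). The changes were 1.32, 1.95 and 0.95, with a mean of 1.41 (standard error 0.20, 95% interval from 0.89 to 1.93, adjusted p = 0.0984 from limma). In order of p, Nqo1 stood at rank 381, Idh1 at 764, Pgd at 1159 and Rpia at 2083 of all probesets. The genes whose profile over the 6 arrays lay nearest to that of Nqo1, each centred on its own mean, were Serpinb2, Nes, Gclc, Slc20a1 and Klhl29, with root mean square differences from 0.20 to 0.30 on the log2 scale. With 6 arrays of 3 mice this likeness is a description only.

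The sequences just before the start sites of these 4 genes are shown because their transcripts had an unadjusted p under 0.05. They are the 100 bases before the outermost RefSeq start of each gene (GRCm38.p6, all on the minus strand), written 5′ to 3′. Capitals mark TATAAA and CCAAT, searched on both strands, which 5.56% and 18.9% of all 32851 RefSeq windows hold in the same 100 bases. Both motifs were chosen after the values were seen.
Nqo1, chr8:107403206-107403305: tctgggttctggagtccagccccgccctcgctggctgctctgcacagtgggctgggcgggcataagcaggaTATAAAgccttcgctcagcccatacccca
Pgd, chr4:149166706-149166805: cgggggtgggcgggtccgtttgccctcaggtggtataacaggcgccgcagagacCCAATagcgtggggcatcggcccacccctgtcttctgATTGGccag
Rpia, chr6:70792176-70792275: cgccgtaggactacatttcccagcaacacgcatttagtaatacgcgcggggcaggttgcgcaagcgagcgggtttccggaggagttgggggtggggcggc
Idh1, chr1:65186480-65186579: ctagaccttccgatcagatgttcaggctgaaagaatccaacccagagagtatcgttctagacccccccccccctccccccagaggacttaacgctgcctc
Nqo1 held 1 TATAAA and no CCAAT, Pgd 2 CCAAT and no TATAAA, and Rpia and Idh1 neither.

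The core of the antioxidant response element, TGACNNNGC on either strand, was then looked for in the full windows of 250 bases before to 50 after each start. All 9 measured members had a window, and 2 of them (22.2%) held the core, Me1 and Pgd, against 14% of 27025 genes. Of the 15 other NRF2 target genes with a window, 6 held it (40%), in 31.8% of their 22 windows against 12.4% of all 32851. Similar shares occurred in lists not drawn up as NRF2 targets. They were 42.9% of 7 lipid and sterol synthesis genes and 38.5% of 13 other pentose and ribose phosphate enzymes. NRF2 and its regulators (44.4% of 9 genes) and the osteoclast markers (50% of 4) had higher shares than the NRF2 targets. The remaining lists had lower shares, down to 0% of 8 other NADPH-forming enzymes and NAD kinases. The sites of both members are given beside those of 2 NRF2 targets with higher values in all 3 C5a-stimulated cultures. These targets are Prdx1, which encodes a peroxiredoxin (change 0.22), and Txnrd1 (change 1.81). The other targets with the core, not shown, had changes of both signs. They were Srxn1 (1.81), Gclm (1.04), Abcc4 (0.05) and Mgst1 (-0.21). All sites shown have the core in capitals and are written 5′ to 3′ on the strand of the gene.
Me1, chr9:86695902-86695931, minus strand: cgatgccgccgTGACTCAGCgcttctcgcg
Pgd, chr4:149166061-149166090, minus strand: catttcagagcTGACATTGCactgatcgga
Prdx1, chr4:116685426-116685514, plus strand: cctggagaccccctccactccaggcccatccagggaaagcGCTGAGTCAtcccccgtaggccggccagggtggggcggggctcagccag
Txnrd1, chr10:82859074-82859162, plus strand: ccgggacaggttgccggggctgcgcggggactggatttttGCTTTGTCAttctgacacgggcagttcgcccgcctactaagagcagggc
The Me1 core spans its start site, from base -6 to base 3, and it is the reverse complement of the core of Prdx1. Aldoa, from the list of glucose uptake and upper glycolysis, held the same core as Prdx1, so that this core was not particular to NRF2 targets. The Pgd core lies at bases 4 to 12 of an inner start. Nqo1 and Idh1 held none in this window, which says nothing of sites farther away. A match is a stretch of letters and not evidence of binding.

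Among the 21 other NRF2 target genes, 17 had changes above 0 and 4 below. At an unadjusted p under 0.05, 10 were higher and 1 lower, where 7.61% of all probesets were higher and 8.58% lower. At the 1.5-fold threshold in addition 7 were higher and 0 lower, where 1.71% and 1.57% of all probesets were, and 0 passed after adjustment over all probesets with limma. Their median change was 0.22, against -0.01 over all genes. Like the other lists, this one was chosen with earlier results of these data known, so that its counts are a description only. The paper lists Srxn1 and Txnrd1 among its most upregulated probesets. Counts of the other lists are read against the same shares and against the counts over all genes, where lower calls were more frequent than over all probesets. With 9 to 14 genes in a list, a single gene with an unadjusted p under 0.05 is close to these shares. Several of the NRF2 targets use NADPH or build glutathione. Srxn1, which encodes sulfiredoxin and repairs peroxiredoxins, had values of 11.60, 10.88 and 10.95 in C5a-stimulated osteoblasts, against 9.93, 9.19 and 8.88 in unstimulated ones, a change of 1.81 (adjusted p = 0.0704 in the limma fit, standard error 0.11). Txnrd1, which encodes the NADPH-dependent thioredoxin reductase, had 11.78, 11.07 and 11.34 with C5a, against 9.63, 9.74 and 9.41 without, a change of 1.81 (adjusted p = 0.0811 in the limma fit, standard error 0.17). Gclc, the catalytic subunit of the enzyme that starts glutathione synthesis, had a change of 1.22 and the exporter Abcc1 one of 0.68. In each of these 4 genes all C5a arrays lay above all unstimulated arrays. Of 9 genes of NRF2 itself and its regulators, 1 was higher and 2 were lower at an unadjusted p under 0.05, with changes of -0.32 for Keap1, the adaptor that marks NRF2 for degradation, -0.31 for Rbx1 and 0.28 for Mafg. None passed after adjustment (adjusted p from 0.255 to 0.290 for these 3 from limma).

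The other enzymes that form NADPH, with the NAD kinases, had mostly lower values with C5a. Of 12 measured, 9 had changes below 0, 4 were lower and 1 higher at an unadjusted p under 0.05, and 0 passed after adjustment with limma. Their median change was -0.24, and it was -0.36, -0.21 and -0.28 in mice 2, 4 and 5. Idh2, the mitochondrial counterpart of Idh1, had values of 9.32, 9.42 and 9.50 in C5a-stimulated osteoblasts, against 10.16, 9.68 and 9.84 in unstimulated ones. These groups did not overlap, and the change was -0.48 (adjusted p = 0.192 in the limma fit, standard error 0.14). Nnt, the transhydrogenase of the inner mitochondrial membrane, had a change of -0.31 (adjusted p = 0.140 in the limma fit, standard error 0.07). Aldh1l1 and Aldh1l2, which release NADPH from the folate pool, were lower by changes of -0.39 and -0.44 (limma, adjusted p = 0.112 and 0.172). Each of these 4 genes was lower in all 3 mice.

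Of 14 other enzymes of pentose and ribose phosphates, 1 was higher and 3 were lower at an unadjusted p under 0.05, and the median change was -0.03. Pgm2, a phosphopentomutase that brings ribose of nucleosides into the pathway, had values of 9.53, 8.89 and 9.30 in C5a-stimulated osteoblasts, against 8.40, 8.67 and 8.57 in unstimulated ones, a change of 0.70 (adjusted p = 0.175 in the limma fit, standard error 0.18). Prps2, which encodes a synthetase of phosphoribosyl pyrophosphate, had 8.20, 8.08 and 8.23 with C5a, against 8.71, 8.57 and 8.72 without. Its change of -0.50 differed little between mice (-0.51, -0.49 and -0.49, with an adjusted p of 0.0952 in the limma fit). Prpsap1, which encodes a protein associated with that synthetase, had a change of -0.45. G6pd2, a copy of G6pdx that the RefSeq table also lists as a G6pdx pseudogene, had values of 8.84, 8.78 and 8.25 with C5a, against 8.82, 8.46 and 8.11 without, a change of 0.16 (95% interval from -0.07 to 0.39, adjusted p = 0.485 from limma). Transcripts of both genes may not be told apart by its probes.

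**Figure D3:**
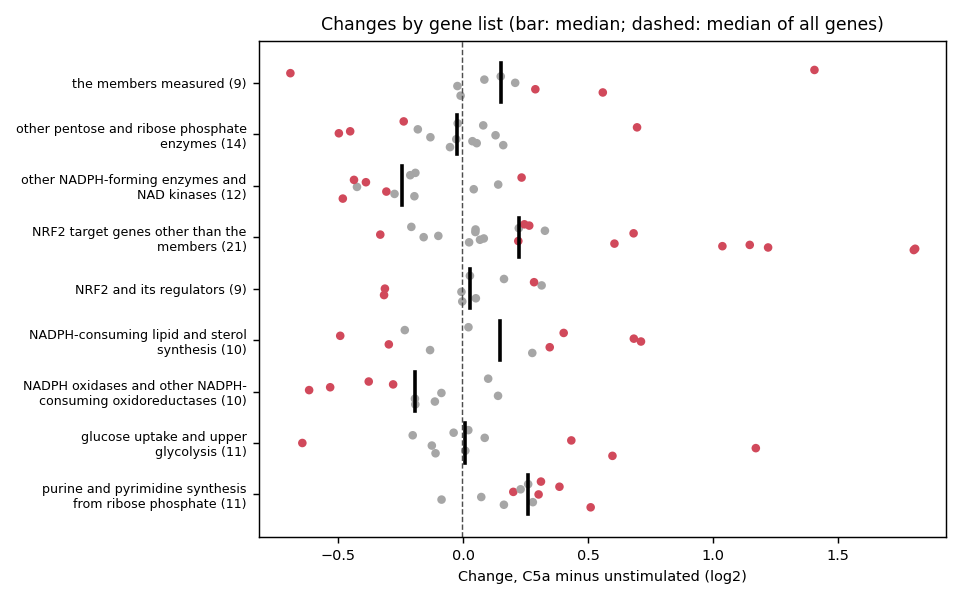
Change of each measured gene (C5a minus unstimulated, log2) in the lists of pentose phosphate, NADPH and neighbouring genes, with the number of genes in brackets. Red points have an unadjusted p under 0.05 from limma and grey points do not, black bars are medians and the dashed line is the median of all genes (-0.01). The NRF2 target genes have a median of 0.22 and the other NADPH-forming enzymes one of -0.24.

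Uses of the products were split. Of 11 genes of purine and pyrimidine synthesis, which draw on ribose 5-phosphate, 10 had changes above 0, and 5 were higher and 0 lower at an unadjusted p under 0.05. Their median change was 0.26 and 0 passed after adjustment with limma. Adss, which acts in the last steps to AMP, had a change of 0.39 (adjusted p = 0.131 from limma), and Ppat, which commits phosphoribosyl pyrophosphate to purines, one of 0.51 (adjusted p = 0.257 from limma), although mouse 4 had a change of only 0.02. Of 10 genes of lipid and sterol synthesis, 4 were higher and 2 lower at an unadjusted p under 0.05. Sqle and Hsd17b12 had changes of 0.71 and 0.40 and Dhcr7 one of -0.49 (limma, adjusted p = 0.140, 0.112 and 0.118). Of 10 NADPH oxidase subunits and other oxidoreductases, 0 were higher and 4 lower at an unadjusted p under 0.05. The changes were -0.62 for Nox4, -0.53 for Cbr1, -0.38 for Blvra and -0.28 for Txnrd2 (adjusted p from 0.115 to 0.231 from limma). Each of these 4 was lower in all 3 mice. The median change of the 10 genes was -0.23, -0.39 and -0.04 in mice 2, 4 and 5. Their mean levels were 7.61, 7.79 and 6.75, lowest in mouse 5 like the macrophage markers. The part of macrophages in these values was not tested. Upstream, 3 of 11 genes of glucose uptake and upper glycolysis were higher and 1 lower at an unadjusted p under 0.05. The higher ones were Hk2, which makes glucose 6-phosphate (1.17), Slc2a1 (0.60) and Pfkp (0.43) (limma, adjusted p = 0.140, 0.275 and 0.149). The lower one was Pfkm (-0.64, limma, adjusted p = 0.0902). Pfkp and Pfkm both encode a phosphofructokinase of glycolysis, and their changes had opposite signs.

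Levels of the members differed between mice as well as between treatments. The mean of both arrays of Pgd was 11.58, 11.54 and 10.81 for mice 2, 4 and 5, that of Taldo1 was 8.82, 8.69 and 7.98, and that of Tkt was 9.05, 9.0 and 8.68. Mouse 5 was thus the lowest in all 3 genes. It was also the lowest in several osteoblast markers, with mean values of 11.5, 12.7 and 7.29 for Ibsp, 10.4, 11.3 and 9.46 for Alpl and 8.73, 6.70 and 5.38 for Phex in mice 2, 4 and 5, and in the macrophage markers, among which Cd68 had 6.78 with C5a and 6.51 without in mouse 5, against 10.8 to 11.6 on the other 4 arrays. The mean of both arrays of Nqo1 was lowest in mouse 5 too (8.64, 8.64 and 8.21). Its unstimulated array was not, at 7.73 in mouse 5 against 7.98 and 7.66 in mice 2 and 4. The means of the other 5 members were not lowest in mouse 5, with Idh1 at 9.77, 9.83 and 9.92 in mice 2, 4 and 5. The part of the differences in osteoblast and macrophage markers in these levels was not tested. Macrophage markers had median changes of -0.36, -0.52 and 0.17 in mice 2, 4 and 5, and at an unadjusted p under 0.05 0 of 10 were higher and 3 lower. In mouse 5, where these markers were low on both arrays, the change was 0.78 for Pgd, 0.95 for Nqo1 and -0.58 for Idh1. Without mouse 5 the changes were 0.45 for Pgd, 1.64 for Nqo1 and -0.75 for Idh1 (limma, adjusted p = 0.322, 0.239 and 0.284), and 1 member was higher and 1 lower at the thresholds of the methods as before. Markers of several cell types also differed between the groups at an unadjusted p under 0.05, and 0 of them passed after adjustment with limma. Of 8 osteoblast markers 0 were higher and 2 lower, Ibsp (-0.43) and Phex (-0.42), of 7 adipocyte markers 1 was higher, Cidec (0.21), and 1 lower, Lpl (-0.64), of 5 smooth muscle and pericyte markers 2 were higher, Des (1.30) and Cnn1 (0.63), and of 5 chondrocyte markers 1 was lower, Sox9 (-0.71). Lpl, Des, Cnn1, Sox9 and the macrophage marker Mrc1 (-0.62) passed the 1.5-fold threshold too. The part of these cells in the changes of the members was not tested.

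**Figure D4:**
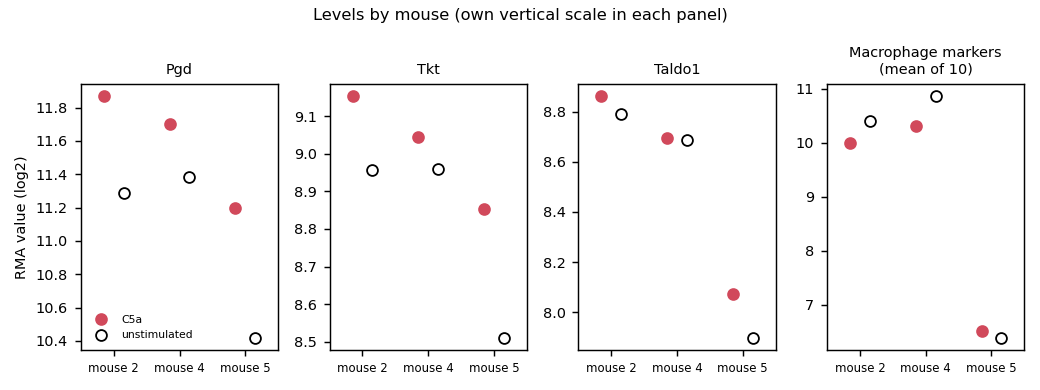
RMA values (log2, own vertical scale in each panel) of Pgd, Tkt, Taldo1 and the mean of 10 macrophage markers, by mouse, with C5a arrays as filled and unstimulated arrays as open circles. Both arrays of mouse 5 are the lowest of their group in all 4 panels, and the macrophage mean is 6.45 in mouse 5 against 10.2 and 10.6 in mice 2 and 4.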

How the data were processed

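RNA of 3 C5a-stimulated and 3 unstimulated osteoblast cultures was hybridised to 1 Mouse Gene 1.0 ST array each. Expression Console and BRB-ArrayTools served for image analysis and normalization, and the authors deposited log2 values per probeset after robust multiarray averaging (versions not given in the sources used here). The values were used as deposited. Probesets were named through the platform annotation (21789 name 1 gene, 1621 several and 12146 none), and 21698 of those naming 1 gene carry an Entrez Gene ID that the RefSeq table holds. For a gene with more than 1 probeset, the one of highest mean was taken. Groups were compared with limma 3.58.1 in R 4.3.3 (lmFit and eBayes) with the mouse as a block, since each cell pool came from 1 mouse and was split. The deviations from the group means correlated at 0.495 to 0.684 between the arrays of a mouse and at -0.446 to -0.0353 between mice. P-values were adjusted over all 35556 probesets. The steps were tested on simulated arrays.

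Genes named are the members, up to 4 genes per list with the smallest p, 8 fixed markers and the 5 profiles nearest to the member with the smallest p. Prdx1, G6pd2 and the markers with an unadjusted p under 0.05 were chosen after their values were seen. Aldoa, Gclm, Abcc4 and Mgst1 were named for their cores. The members and lists (157 entries, 145 measured) were chosen with earlier results of these data known. Alternatives were the fit without the block, the t-test of the methods, a paired t-test per probeset, eBayes with trend and robust options, only probesets above the 40th percentile of the means, only those naming 1 gene, quantile normalization, median centring, each mouse left out, and other probesets per gene. The number of arrays limits the precision. Promoter windows are those of RefSeq (GRCm38.p6).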

Additional observations from a re-analysis of the deposited data

How the results depend on the processing

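The direction of Nqo1, Pgd, Rpia, Tkt, Taldo1, Me1 and Idh1 was the same under all 13 alternatives. Pgls had a change of 0.0103 after quantile normalization and of -0.0693 to 0.0319 with a mouse left out, and Rpe one of 0.0135 and of -0.0832 to 0.0756, so that both signs occurred. With only the probesets naming 1 gene, 318 probesets were higher and 477 lower at an adjusted p under 0.05, among them 1 member higher (Nqo1) and 1 lower (Idh1). Above the 40th percentile of the means there were 152 and 221, with 1 member higher and 0 lower. Fewer probesets were tested in both, and unadjusted p-values differed as well. That of Nqo1 was 0.000430 and 0.000490 in these fits, against 0.00106 in the main fit (limma). Across all alternatives the adjusted p ran from 0.0338 to 0.527 for Nqo1, from 0.0441 to 0.533 for Idh1, from 0.0523 to 0.747 for Pgd and from 0.0751 to 0.640 for Rpia. Without the replicate block, 1 probeset was higher and 4 were lower after adjustment, none of them a member, and Pgd lost its unadjusted call, while no other member's call changed. The t-test of the methods, not paired, gave 374 higher and 291 lower at their thresholds, and the paired t-test per probeset gave 226 and 291. Both gave 0 after adjustment. In both, 1 member was higher and 1 lower at those thresholds, Pgd lost its unadjusted call, and Rpia lost it in the t-test of the methods. Calls were gained at an unadjusted p under 0.05 by Me1 in the paired t-test and by Tkt with only the probesets naming 1 gene, after quantile normalization and with the mean of all probesets of a gene. With a mouse left out, 0 to 3 probesets were lower after adjustment and 409 to 1009 were higher at the thresholds of the methods. Of the members, 1 to 2 were then higher (Pgd in addition without mouse 4) and 0 to 1 lower (Idh1 not without mouse 2). The median change of the members was 0.20 with the most variable probeset of each gene, and that of the NRF2 targets was 0.14 without mouse 5. With 3 pairs of arrays, changes as small as those of Pgls, Rpe and Taldo1 were within their intervals around 0.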
